A study of Mus musculus with 18 samples.

Results

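This comparison set the airway of Cebpa-deleted mice at 72 hr after naphthalene injury against the same genotype at 3 hr, using 6 of the 18 arrays of the series. The members were chosen by their sample titles: 3 Cebpa d/d arrays at 72 hr and 3 Cebpa d/d arrays at 3 hr, 1 of each replicate number. Total RNA came from terminal bronchiolar epithelial cells of mouse lung, the strain being a mixture of FVB/N and C57BL/6, and all of these groups had naphthalene injury. The genotype is given as Cebpa d/d. The promoter, Cre line, dose, age and any pooling of animals are not given in the sources used here. Control mice of the same background at 72 and 3 hr (3 arrays each) entered the same fit and served as the comparison genotype. The arrays of the 0 hr groups were left out of this fit. They entered an alternative fit of all 18 arrays and the choice of 1 probe set for each gene. Values are log2 signals on Affymetrix arrays for 19938 genes, an adjusted p is limma's with Benjamini-Hochberg adjustment over these genes, errors of differences are SE, and single arrays are given in the order of replicates 1, 2 and 3. Nothing in the labels says whether replicates came from separate mice, so the p-values cover only how far these arrays spread, which may be technical, and 3 arrays a group limit the precision.

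Naphthalene is turned into reactive epoxides by cytochrome P450 enzymes that are concentrated in club cells, the secretory cells of the small airways, and these cells are the ones it kills. Reactive metabolites deplete glutathione and switch on stress programs, among them that of NRF2, the transcription factor that drives antioxidant genes through the antioxidant response element. Surviving secretory cells later divide and restore the epithelium. C/EBPα, the product of Cebpa, is a transcription factor of lung epithelial maturation.

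Cebpa itself served as a check of the genotype. It measured 9.07, 8.55 and 7.90 in Cebpa d/d mice at 72 hr, against 8.29, 8.07 and 8.37 at 3 hr, with overlapping arrays (difference 0.26 ± 0.22 on the log2 scale, adjusted p = 0.554; -0.02 without replicate 1). Control arrays lay higher, at 9.69 to 9.87 at 72 hr and 10.30 to 10.52 at 3 hr. Replicate 1 at 72 hr thus had the highest Cebpa signal of the 6 Cebpa d/d arrays, still below every control array of these times.

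The labelled cell type was checked against its markers. Scgb1a1, the secretoglobin that defines club cells, measured 12.55, 12.72 and 12.78 at 72 hr against 12.73, 12.98 and 12.81 at 3 hr (adjusted p = 0.328). Sftpc, the surfactant protein that defines alveolar type 2 cells, measured 13.04, 13.22 and 13.26 against 13.16, 13.25 and 13.15 (adjusted p = 0.953). A marker of alveolar cells was thus detected beside that of club cells at both times, and signals of different probe sets do not give the share of either. Actc1, the cardiac form of actin, reached 11.96, 12.22 and 12.14 at 72 hr against 11.36, 11.70 and 10.83 at 3 hr (adjusted p = 0.235 with sex as a covariate). The mean of 32 cardiac muscle genes was 6.82 to 7.07 against 7.07 to 7.41, and 23 of the 32 differences were negative. At an adjusted p under 0.05, Actc1 and Trdn rose (6.25% of the list, beside 4.81% of all genes). Csrp3 and Ttn fell (6.25%, beside 3.46%). Without replicate 1 at 72 hr, 2 rose and none fell, and with sex as a covariate none passed. In bulk RNA, fewer cells of a type and less RNA per cell cannot be told apart.

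Replicate 1 at 72 hr stood apart from the other 2 arrays of its group. Its mean over 39 mitosis genes was 7.30, against 8.08 and 7.72 in replicates 2 and 3, while the 3 hr arrays lay at 6.36, 6.22 and 6.41. Its mean over 26 club cell genes was 9.97, against 9.32 and 9.41. Results are therefore given with and without this array.

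**Figure D1:**
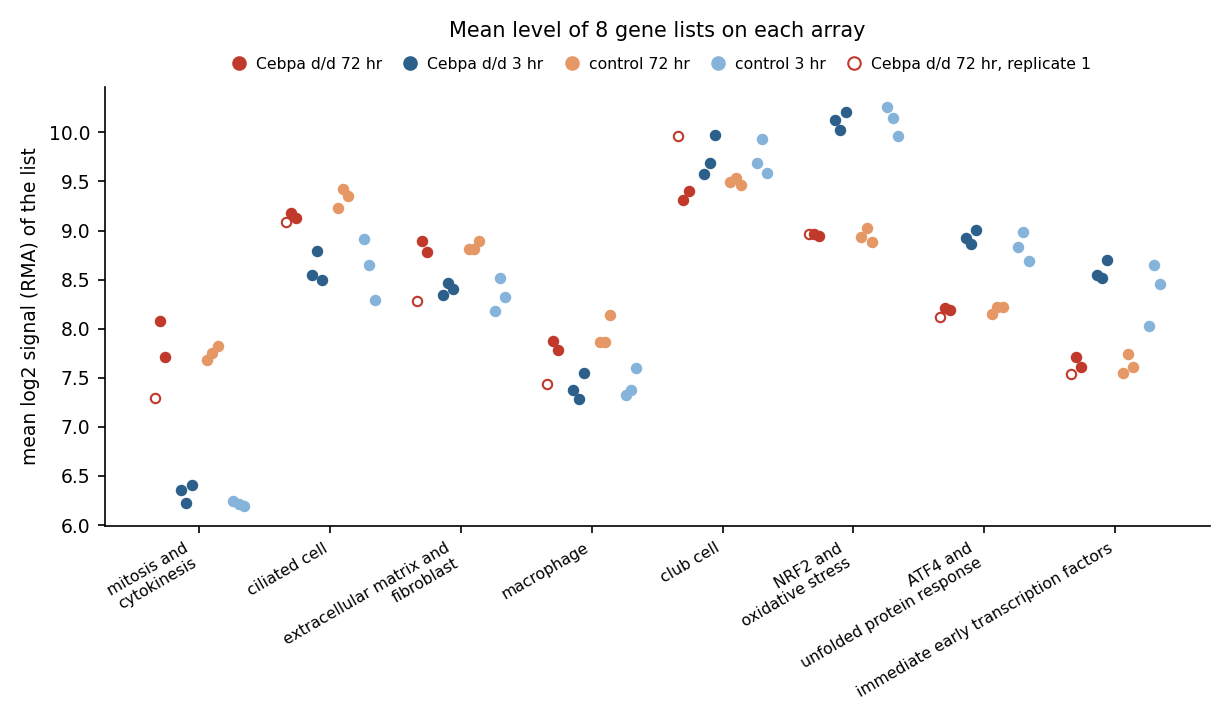
Mean log2 signal (RMA) of 8 gene lists on each of 12 arrays; each point is 1 array, red for Cebpa d/d at 72 hr (open for replicate 1), dark blue for Cebpa d/d at 3 hr, orange and light blue for control at 72 and 3 hr. In mitosis genes the open point (7.30) lies between the other 72 hr arrays and the 3 hr arrays, and in NRF2 genes it lies with the other 72 hr arrays (8.94 to 8.97 for all 3, against 10.02 to 10.21 at 3 hr).

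Sex was not balanced over time. By Xist, the non-coding RNA of the inactive X chromosome, all 3 Cebpa d/d arrays at 72 hr were female, against 1 female and 2 male arrays at 3 hr, and control arrays had the same numbers. Replicate 2 at 3 hr was the female array. As every 72 hr array was female, a sex covariate is estimated from the 3 hr arrays alone, which costs precision in the 72 minus 3 hr difference. A call lost with sex can come from this loss or from sex itself, and these were not told apart. Where the text counts the members of a gene group that were called with all arrays, the count with sex as a covariate is given as well.

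At an adjusted p under 0.05, 959 of 19938 genes rose (4.81% of those tested) and 690 fell (3.46%) in Cebpa d/d mice at 72 hr relative to 3 hr. Without replicate 1 at 72 hr, 1098 rose (5.51%) and 695 fell (3.49%), 8.99% in all against 8.27% with it. Both fits called 1272 genes in the same direction (6.38%), 760 that rose (3.81%) and 512 that fell (2.57%). The 72 and 3 hr arrays did not overlap for 28.3% of all genes, with the 72 hr arrays higher for 15.3% and lower for 13%. Changes of at least 2-fold were made by 140 of the genes that rose (0.702% of genes tested) and 108 of those that fell (0.542%). Slc7a11 and Hmox1 made the largest falls, and 7 of the 14 largest rises were on the list of mitosis genes. The counts leaned on single arrays: leaving out replicate 2 or 3 at 72 hr gave 307 or 370 rises and 296 or 273 falls, and leaving out replicate 1 or 3 at 3 hr gave 445 or 384 rises and 315 or 285 falls. With sex as a covariate, 270 genes rose and 243 fell. Of all calls, 58.2% were rises, and this share was 46.5% after each array was centred on its median (725 rises and 834 falls).

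**Figure D2:**
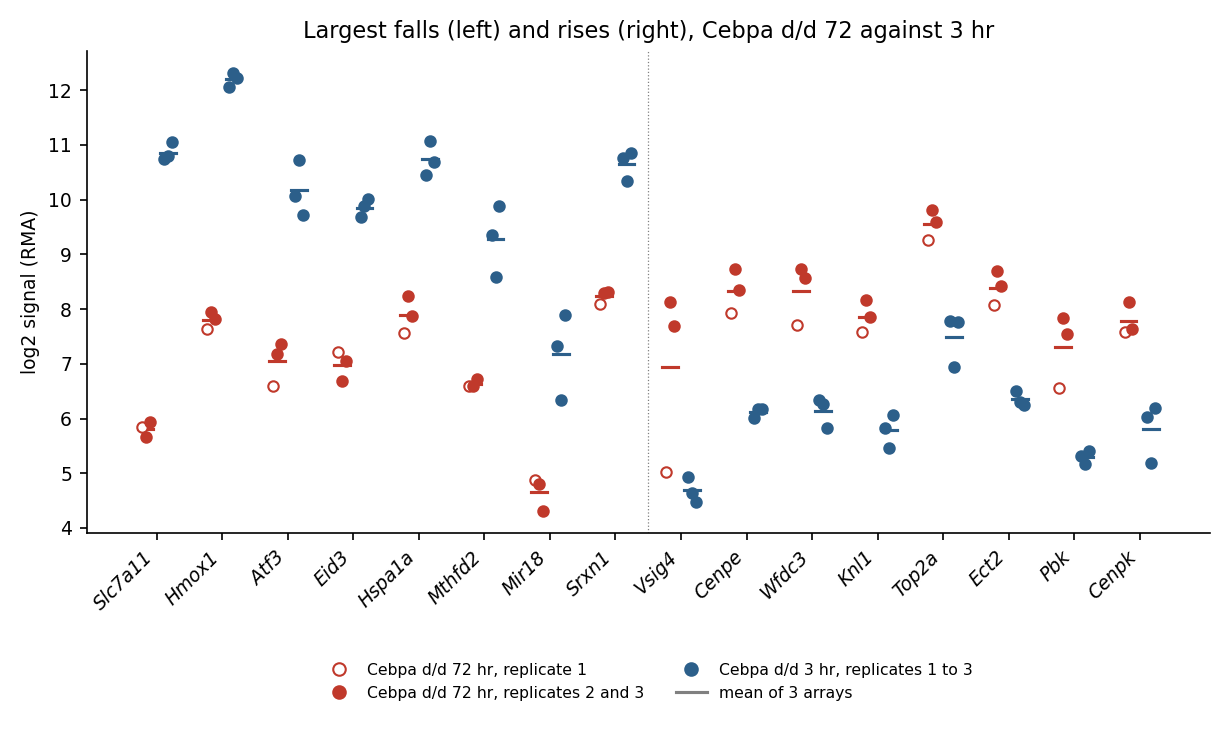
Log2 signal (RMA) of the 8 genes with the largest falls and the 8 with the largest rises among genes called with and without replicate 1; points are arrays of Cebpa d/d mice at 72 hr (red, open for replicate 1) and 3 hr (blue), and bars are means of 3 arrays. Slc7a11 lies at 5.66 to 5.93 at 72 hr against 10.73 to 11.04 at 3 hr, and Vsig4 replicate 1 (5.02) lies near the 3 hr arrays.

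Genes of the antioxidant program made the largest falls. Of 28 NRF2 and oxidative stress genes measured, 17 fell (60.7%, beside 3.46% of all genes) and none rose. The list's median difference was -0.61 (-0.84 without replicate 1), beside a median of -0.0001 over all genes. In control mice 19 fell. With sex as a covariate 14 fell. The fallen genes covered cystine supply, glutathione synthesis, thioredoxin recycling, haem breakdown and iron storage.

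Slc7a11, the cystine importer that supplies glutathione synthesis, measured 5.84, 5.66 and 5.93 at 72 hr against 10.73, 10.80 and 11.04 at 3 hr. It was 33.1-fold lower (log2 difference -5.05 ± 0.23, adjusted p = 4.28e-07; -5.06 without replicate 1). Hmox1, which breaks down haem, measured 7.64, 7.95 and 7.81 against 12.07, 12.32 and 12.21, a 21.1-fold fall (-4.40 ± 0.12, adjusted p = 2.33e-09). The groups did not overlap for either gene, a condition for being named among the largest changes. Srxn1, which repairs over-oxidised peroxiredoxins, measured 8.10, 8.30 and 8.32 against 10.77, 10.34 and 10.85 (5.32-fold lower, adjusted p = 2.27e-06). The subunits of glutamate-cysteine ligase, the rate-limiting enzyme of glutathione synthesis, fell together: the catalytic subunit Gclc by 2.06 ± 0.14 on the log2 scale and the modifier Gclm by 1.98 ± 0.15 (adjusted p = 1.05e-05 and 2.26e-05). Osgin1, an oxidative stress growth inhibitor, fell 4.91-fold. Txnrd1 (thioredoxin reductase), Nqo1 (a quinone reductase), Sqstm1 (an autophagy adaptor that also binds KEAP1) and Ftl1 (ferritin light chain) were 3.54, 3.23, 3.03 and 2.27-fold lower. Gclm, Txnrd1, Nqo1, Sqstm1 and Ftl1, like Atf4, Asns, Slc7a5, Fosl1, Cdk1, Ccnb2, Foxm1, Clu and others in the text that the naming rule did not take, were chosen after their values were seen. Cat, which encodes catalase, did not pass the test (10.83, 9.76 and 9.79 against 10.75, 10.61 and 10.63; adjusted p = 0.218, and 0.00505 without replicate 1).

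Promoters from RefSeq (GRCm38.p6), 300 bases around the gene start, are shown for fallen genes whose promoter holds the letters of the antioxidant response element, TGACNNNGC on either strand, in capitals.
Txnrd1 (chr10:82858956-82859255, plus strand): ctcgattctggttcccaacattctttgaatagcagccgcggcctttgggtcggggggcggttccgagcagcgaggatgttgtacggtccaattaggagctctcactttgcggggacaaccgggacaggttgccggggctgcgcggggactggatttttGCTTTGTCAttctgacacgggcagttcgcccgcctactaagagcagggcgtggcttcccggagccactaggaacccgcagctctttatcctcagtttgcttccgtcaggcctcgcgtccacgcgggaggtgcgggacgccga
Gclm (chr3:122245307-122245606, plus strand): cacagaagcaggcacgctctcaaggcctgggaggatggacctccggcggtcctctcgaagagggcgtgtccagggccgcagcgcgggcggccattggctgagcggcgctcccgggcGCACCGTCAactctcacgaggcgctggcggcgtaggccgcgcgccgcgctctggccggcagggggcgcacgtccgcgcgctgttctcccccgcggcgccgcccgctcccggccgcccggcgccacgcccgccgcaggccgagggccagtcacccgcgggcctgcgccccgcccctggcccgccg
The letters were present in 34.5% of 29 promoters of the list (10 promoters), beside 13.2% of all 19177 promoters. The fallen genes with the letters were Gclm, Mafg, Pgd, Prdx1, Srxn1 and Txnrd1. Slc7a11 and Hmox1, with the largest falls, were not among them, and promoters were available for 23 genes of the list. Txnrd1 has 3 promoters in RefSeq, and the one shown is the 1 with a match. A match describes letters and not binding.

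The immediate early transcription factors, which answer growth factor and stress signals within minutes, were lower at 72 hr. Of 30 members 22 fell (73.3%, beside 3.46% of all genes) and none rose, with a median of -0.85. The falls numbered 19 without replicate 1, 12 with sex as a covariate and 21 in control mice. Atf3, a stress-induced repressor, measured 6.59, 7.18 and 7.36 against 10.06, 10.73 and 9.71 (8.72-fold lower, adjusted p = 2.64e-05). Egr1 measured 7.26, 7.81 and 7.56 against 9.69, 9.69 and 9.92 (4.67-fold lower, adjusted p = 0.000818), and Myc 7.38, 8.46 and 8.24 against 10.15, 10.04 and 10.43 (4.52-fold lower, adjusted p = 0.00102). The groups did not overlap for any of these 3, which the rule that named the largest changes required, so this adds no support. The AP-1 subunits Fos, Fosl1 and Jun were 3.23, 3.04 and 2.96-fold lower, and Fosl1 missed the threshold without replicate 3 at 3 hr (adjusted p = 0.0514). Zfp36, which destabilises cytokine mRNAs, was 1.98-fold lower. Of 15 MAP kinase feedback genes 5 fell (33.3%, beside 3.46% of all genes) and 1, Dusp14, rose (6.67%, beside 4.81%). With sex as a covariate 3 fell and none rose. Those that fell with all arrays included the phosphatases Dusp16 (1.95-fold), Dusp4 (1.71-fold) and Dusp1 (1.81-fold) and the EGF receptor inhibitor Errfi1 (2.16-fold). The call of Dusp1 was lost without replicate 3 of either time (adjusted p = 0.0844 and 0.0811), and the adjusted p of Errfi1 was 0.0564 to 0.0807 without replicate 2 or 3 at 72 hr or replicate 1 or 3 at 3 hr. None of the 11 EGF family ligands and receptors was called by limma, beside 8.27% of all genes, and so short a list says little.

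Genes of a joint list for ATF4, the factor that answers amino acid shortage and protein folding stress, and the unfolded protein response fell in part. Of 25 members 16 fell (64%, beside 3.46% of all genes) and none rose, with a median of -0.59. The falls numbered 15 without replicate 1, 13 with sex as a covariate and 15 in control mice. The endoplasmic reticulum genes Hspa5, Sdf2l1, Creld2, Hyou1 and Pdia4 of the list were not called, and 4 members had positive differences. Chac1, a glutathione-degrading enzyme and ATF4 target, measured 6.96, 6.90 and 6.64 against 8.82, 8.88 and 8.76 (3.96-fold lower, adjusted p = 2.26e-05). Ddit3, the stress factor CHOP, measured 8.27, 8.50 and 8.22 against 10.20, 10.05 and 10.29 (3.61-fold lower, adjusted p = 0.00014). Atf4 itself was 2.67-fold lower, the asparagine synthetase Asns 2.75-fold and the endoplasmic reticulum chaperone Dnajb9 3.02-fold. The amino acid transporter subunit Slc7a5 and its partner Slc3a2, which also pairs with Slc7a11, were 3.50 and 2.89-fold lower. Mthfd2, a mitochondrial folate enzyme, measured 6.6, 6.6 and 6.71 against 9.35, 8.58 and 9.88 (6.22-fold lower, adjusted p = 0.00176), with the female array lowest at 3 hr.

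Of 17 heat shock chaperones 9 fell (52.9%, beside 3.46% of all genes), with a median of -0.53. The falls numbered 5 without replicate 1, 4 with sex as a covariate and 12 in control mice. Hspa1a, the inducible HSP70, measured 7.56, 8.23 and 7.87 against 10.45, 11.07 and 10.68 (7.21-fold lower, adjusted p = 3.59e-05). Its partner Dnajb1 measured 7.41, 8.13 and 7.83 against 9.42, 10.78 and 9.93 (4.77-fold lower, adjusted p = 0.00145). The co-chaperones Dnajb4 and Bag3 fell, by 0.94 ± 0.10 and 0.85 ± 0.14 on the log2 scale.

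The promoters below carry, in capitals, the letters of the ATF4 element (TGATGNAA) in Chac1 and of the heat shock element (GAA, TTC and GAA with NN between each) in Chordc1, a co-chaperone of HSP90 that was 1.99-fold lower (adjusted p = 0.0191, and 0.128 with sex as a covariate).
Chac1 (chr2:119350992-119351291, plus strand): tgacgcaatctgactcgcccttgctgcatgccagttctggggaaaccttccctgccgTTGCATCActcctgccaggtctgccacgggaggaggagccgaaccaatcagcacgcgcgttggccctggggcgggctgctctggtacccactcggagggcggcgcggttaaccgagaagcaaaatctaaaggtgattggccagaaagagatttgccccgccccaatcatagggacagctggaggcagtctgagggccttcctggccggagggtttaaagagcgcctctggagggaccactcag
Chordc1 (chr9:18292017-18292316, plus strand): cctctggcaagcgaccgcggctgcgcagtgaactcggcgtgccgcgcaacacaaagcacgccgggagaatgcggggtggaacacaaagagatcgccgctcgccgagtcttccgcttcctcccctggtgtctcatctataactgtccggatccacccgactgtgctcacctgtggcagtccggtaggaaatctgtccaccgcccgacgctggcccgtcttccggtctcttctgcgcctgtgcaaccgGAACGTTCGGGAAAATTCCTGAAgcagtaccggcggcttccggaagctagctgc
The ATF4 letters stood in 23.1% of 26 promoters of the list (6 promoters), beside 3.08% of all promoters. The heat shock letters stood in 25% of 20 promoters (5 promoters), beside 0.49%. These promoters belonged to 4 genes, of which only Chordc1 and Hspe1 were called. Both calls were lost with sex as a covariate (adjusted p = 0.128 and 0.221), and Hspa1a and Dnajb1 were not among the matches. Both strands were searched, and the 3 matches in Chordc1 overlap.

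Other stress-linked groups moved less evenly. Of 18 p53 targets 5 fell (27.8%, beside 3.46% of all genes) and 1 rose (5.56%, beside 4.81%). With sex as a covariate 4 fell and 1 rose. Plk3, a stress-activated kinase, was 3.93-fold lower and Gadd45a, a growth arrest gene, 3.09-fold lower, whereas Eda2r was 1.36-fold higher (adjusted p = 0.0419, up to 0.171 with all 18 arrays). Of 9 metallothionein and zinc transport genes 2 fell (22.2%, beside 3.46%) and 2 rose (22.2%, beside 4.81%). With sex as a covariate 1 fell and none rose. The metallothioneins Mt1 and Mt2, which bind zinc, were 2.49 and 2.68-fold lower, and the call of Mt2 was lost without replicate 1 (adjusted p = 0.0576). The zinc importers Slc39a10 and Slc39a4 were 1.64 and 1.71-fold higher, on calls that most alternatives ended (adjusted p up to 0.188 and 0.195). Of 29 chemokines and cytokines 5 fell (17.2%, beside 3.46% of all genes), and 2 fell without replicate 1 and 1 with sex as a covariate. The calls of Ccl7, Ccl3 and Lif were lost with sex (adjusted p = 0.0992, 0.182 and 0.0997). Cxcl5, a neutrophil attractant, measured 5.50, 5.62 and 5.36 against 7.24, 7.14 and 8.29 (4.17-fold lower, adjusted p = 0.000837). Of 20 Myc and ribosome biogenesis genes 10 fell (50%, beside 3.46% of all genes), and 7 fell without replicate 1 and 5 with sex as a covariate. Those that fell with all arrays included the nucleolar protein Gnl3 by 1.37 ± 0.14 and the snoRNP core protein Nop58 by 0.93 ± 0.16 on the log2 scale. Of 21 glycolysis and hypoxia genes 4 fell (19%, beside 3.46% of all genes), among them the glucose transporter Slc2a1 (2.20-fold) and hexokinase Hk2 (1.82-fold). In the same list 1, Ankrd37, rose (4.76%, beside 4.81%), and with sex as a covariate 3 fell and 1 rose. Eid3, an inhibitor of the coactivator p300 that belongs to none of the lists, was 7.32-fold lower (7.21, 6.68 and 7.05 against 9.68, 9.88 and 10.01, adjusted p = 5.19e-06).

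The host transcript of the miR-17 to miR-92 cluster, a MYC target, fell, as did the probe sets annotated to 2 of its 5 measured members. These probe sets do not tell mature from precursor RNA. The mature sequences of the 2 members that fell are shown with the seed, bases 2 to 8, in capitals; both lie on chr14, plus strand (GRCm38.p6, RefSeq), and their seeds differ at 1 base.
miR-17-5p: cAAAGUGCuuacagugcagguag
miR-18a-5p: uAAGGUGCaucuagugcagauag
Mir18 measured 4.88, 4.81 and 4.31 at 72 hr against 7.32, 6.34 and 7.88 at 3 hr (5.72-fold lower, adjusted p = 0.00376). Mir17 measured 4.81, 4.82 and 4.92 against 6.33, 6.49 and 7.02 (3.39-fold lower, adjusted p = 0.00521). The host gene Mir17hg was 1.73-fold lower (adjusted p = 0.00892). Mir20a measured 4.17, 3.97 and 3.83 against 4.67, 4.22 and 5.31 and did not pass (adjusted p = 0.38), nor did Mir19a (1.06-fold lower, adjusted p = 0.556) or Mir19b-1 (1.63-fold lower, adjusted p = 0.0701).

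Cell division genes rose as a block. Of 39 mitosis and cytokinesis genes 38 rose (97.4%, beside 4.81% of all genes) and none fell, and these counts were the same without replicate 1. The median difference was 1.47 (1.72 without replicate 1). With sex as a covariate 33 rose, and in control mice 38 rose. The exception was Bub3, a spindle checkpoint protein (8.05, 8.43 and 8.10 against 8.11, 7.87 and 8.03, adjusted p = 0.442).

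Cenpe, a kinetochore motor, measured 7.93, 8.73 and 8.35 at 72 hr against 6.02, 6.18 and 6.17 at 3 hr (4.64-fold higher, log2 difference 2.21 ± 0.19, adjusted p = 7.14e-05). Cenpf, a kinetochore protein, measured 8.22, 8.61 and 8.33 against 6.48, 6.30 and 6.49 (3.90-fold higher, adjusted p = 6.36e-06). Mki67, the proliferation marker Ki-67, measured 7.68, 8.71 and 8.47 against 6.21, 6.10 and 6.73 (3.84-fold higher, adjusted p = 0.000609). The groups did not overlap for these genes, a condition for being named among the largest changes. Replicate 1 was the lowest 72 hr array for each. Bub1, a checkpoint kinase, measured 6.21, 7.93 and 7.51 against 5.16, 5.21 and 5.38, so that replicate 1 lay nearer the 3 hr arrays than the others (1.97 ± 0.32, adjusted p = 0.00402; 2.47 without replicate 1). Knl1 (kinetochore scaffold), Ect2 (cytokinesis exchange factor), Pbk (mitotic kinase), Cenpk and Cenph (kinetochore subunits), Ckap2 (spindle protein) and Ccna2 (cyclin A2) were 3.72 to 4.22-fold higher; of these only Ect2 and Ccna2 are on the list. The mitotic kinase Cdk1 and its cyclin partner Ccnb2 were 3.63 and 2.71-fold higher (adjusted p = 0.000884 and 0.002). Top2a, the mitotic topoisomerase, was 4.16-fold higher on its brighter probe set, while a dim one (mean log2 signal 4.57) differed by -0.18 (adjusted p = 0.645). Foxm1, a transcription factor of mitotic genes, was 1.59-fold higher (adjusted p = 0.0164, and 0.091 with sex as a covariate).

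Promoters of Cdk1 and Ccnb2 are shown because they hold both of the short motifs common in cell cycle promoters, TTTGAA (the core of the cell cycle homology region) and CCAAT, on either strand, in capitals.
Cdk1 (chr10:69352863-69353162, minus strand): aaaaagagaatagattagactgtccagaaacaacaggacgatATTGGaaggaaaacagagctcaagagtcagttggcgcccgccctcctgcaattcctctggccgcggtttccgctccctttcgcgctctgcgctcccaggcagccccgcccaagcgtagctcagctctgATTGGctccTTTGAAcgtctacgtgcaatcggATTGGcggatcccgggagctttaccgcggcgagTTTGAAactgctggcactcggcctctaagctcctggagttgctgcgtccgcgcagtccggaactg
Ccnb2 (chr9:70421505-70421804, minus strand): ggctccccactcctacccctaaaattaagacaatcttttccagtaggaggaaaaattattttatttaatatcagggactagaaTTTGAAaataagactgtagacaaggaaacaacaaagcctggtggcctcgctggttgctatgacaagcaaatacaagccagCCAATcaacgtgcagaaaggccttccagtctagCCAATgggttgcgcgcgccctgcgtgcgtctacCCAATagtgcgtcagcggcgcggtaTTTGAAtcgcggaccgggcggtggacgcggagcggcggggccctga
TTTGAA stood in 83.3% of 36 promoters of the mitosis list (30 promoters), beside 14.8% of all promoters. CCAAT stood in 75.0% (27 promoters), beside 37.4%.

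DNA replication genes rose by less. Of 33 members 13 rose (39.4%, beside 4.81% of all genes) and none fell, with a median of 0.53. Without replicate 1, 20 rose and the median was 0.67, and with sex as a covariate 7 rose. Rrm2, the regulated subunit of ribonucleotide reductase, measured 7.30, 8.44 and 7.87 against 6.77, 6.37 and 6.76 (2.36-fold higher, adjusted p = 0.0108). Rrm1, its large subunit, was 2.22-fold higher, the ligase Lig1 1.68-fold and the flap endonuclease Fen1 1.51-fold. The helicase subunit Mcm3 was 1.83-fold higher (adjusted p = 0.0178, and 0.107 with sex as a covariate). Of 16 genes of cell cycle entry and inhibition 5 rose (31.2%, beside 4.81% of all genes), and 3 rose with sex as a covariate. Those that rose with all arrays included cyclin D1 (Ccnd1, 9.76, 10.29 and 10.10 against 9.30, 9.35 and 9.38, adjusted p = 0.00883) and the CDK inhibitor Cdkn2c (2.09-fold, adjusted p = 0.000116).

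**Figure D3:**
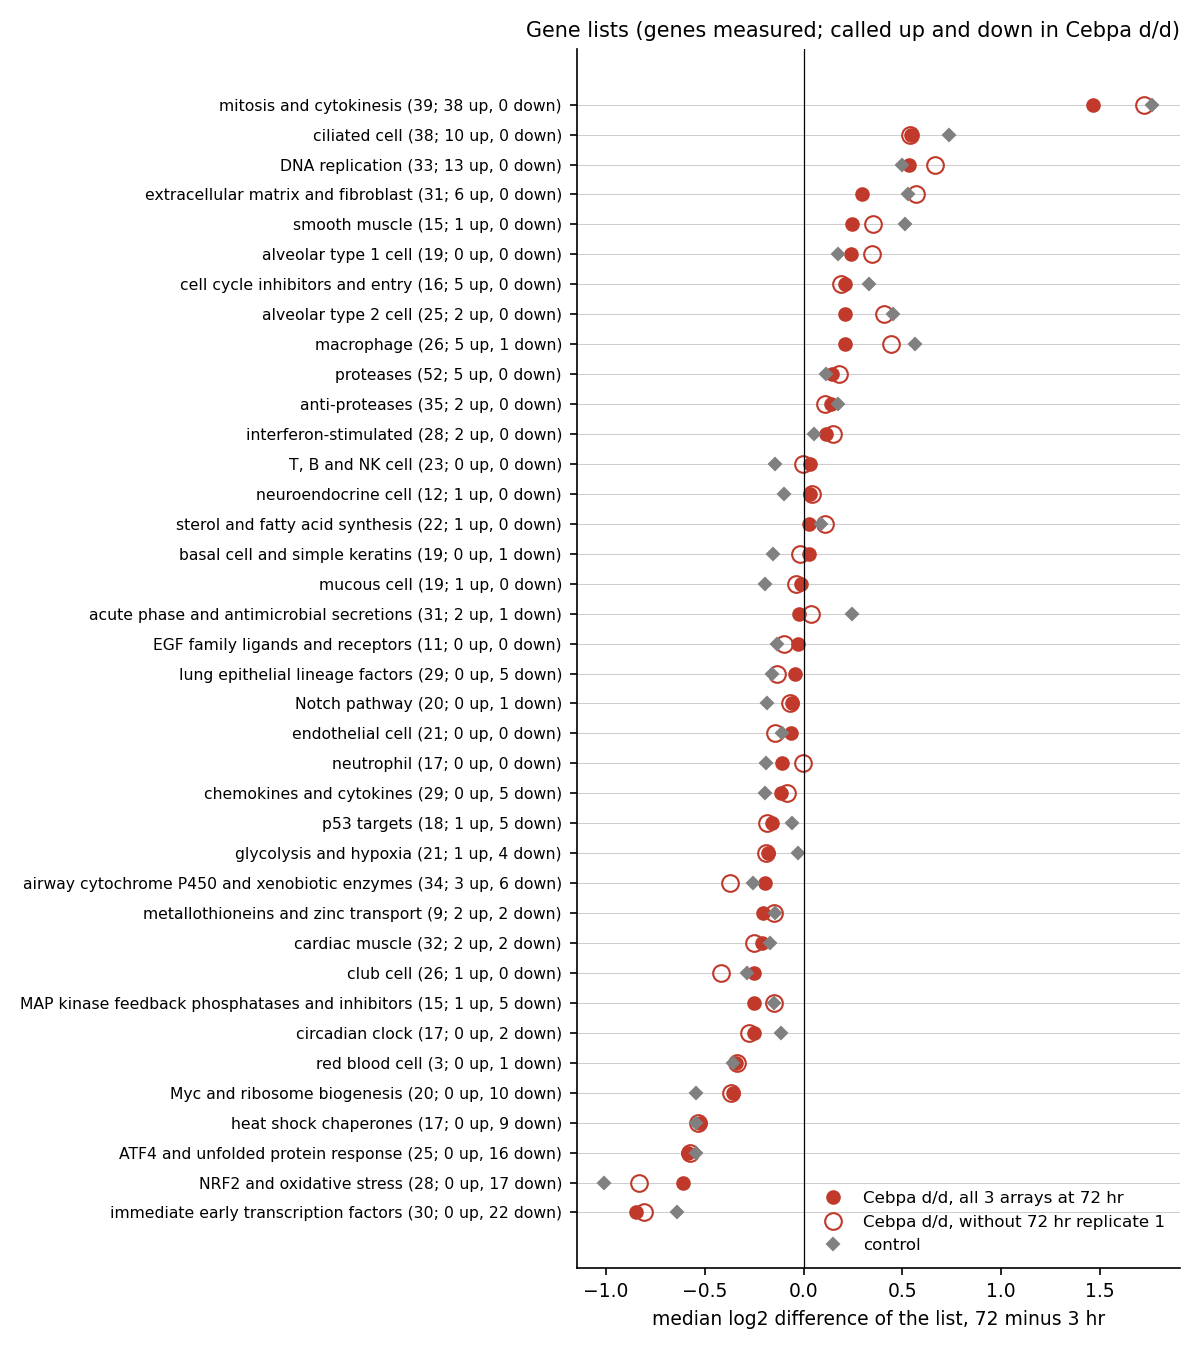
Median log2 difference, 72 minus 3 hr, of 38 gene lists in Cebpa d/d mice with all arrays (filled red), without 72 hr replicate 1 (open red) and in control mice (grey diamonds); labels give the genes measured and those called higher and lower in Cebpa d/d. Mitosis lies farthest up (1.47) and the immediate early factors farthest down (-0.85), and the open circle is shifted most in the fibroblast, mitosis, macrophage and NRF2 lists.

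Club cell genes depended on replicate 1. Of 26 members 1 rose (3.85%, beside 4.81% of all genes) and none fell (beside 3.46%) with all arrays. Without replicate 1, 2 rose and 9 fell (beside 5.51% and 3.49% of all genes). The medians were -0.25 and -0.42. With sex as a covariate none was called by limma. In control mice 2 rose and 5 fell. Cyp2f2, the P450 that activates naphthalene, measured 13.11, 12.41 and 12.62 at 72 hr against 13.16, 13.11 and 13.22 at 3 hr (-0.45 ± 0.14, adjusted p = 0.0675; -0.65 and 0.00158 without replicate 1). Scgb3a2, another club cell secretoglobin, measured 12.29, 11.05 and 11.56 against 12.06, 12.18 and 12.28 (adjusted p = 0.173, and 0.00243 without replicate 1). In both genes replicate 1 lay at the 3 hr level and the others lay below it.

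Aox3, Chad and Lypd2 showed large gaps between replicate 1 and the other 72 hr arrays. Aox3, an aldehyde oxidase, measured 10.61 in replicate 1 and 7.16 and 7.15 in replicates 2 and 3, against 10.48, 10.32 and 10.28 at 3 hr. Replicate 1 was thus 10.9-fold above the other 72 hr arrays, and the difference was -2.05 (adjusted p = 0.0844) with it and -3.20 (adjusted p = 9.42e-07) without it. Chad, which encodes the matrix protein chondroadherin, measured 9.45, 6.36 and 6.83 against 8.29, 8.75 and 8.82 (adjusted p = 0.327, and 0.000937 without replicate 1). Lypd2 measured 10.96, 7.90 and 8.36 against 10.42, 10.04 and 10.43 (adjusted p = 0.242, and 0.00032 without replicate 1). In control mice at 72 hr these genes lay at 8.76 to 9.15, 6.59 to 7.36 and 7.86 to 8.31, with no array set apart as replicate 1 was. Its higher Cebpa signal and lower matrix and macrophage signals moved with these values, and their part in the result was not tested.

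**Figure D4:**
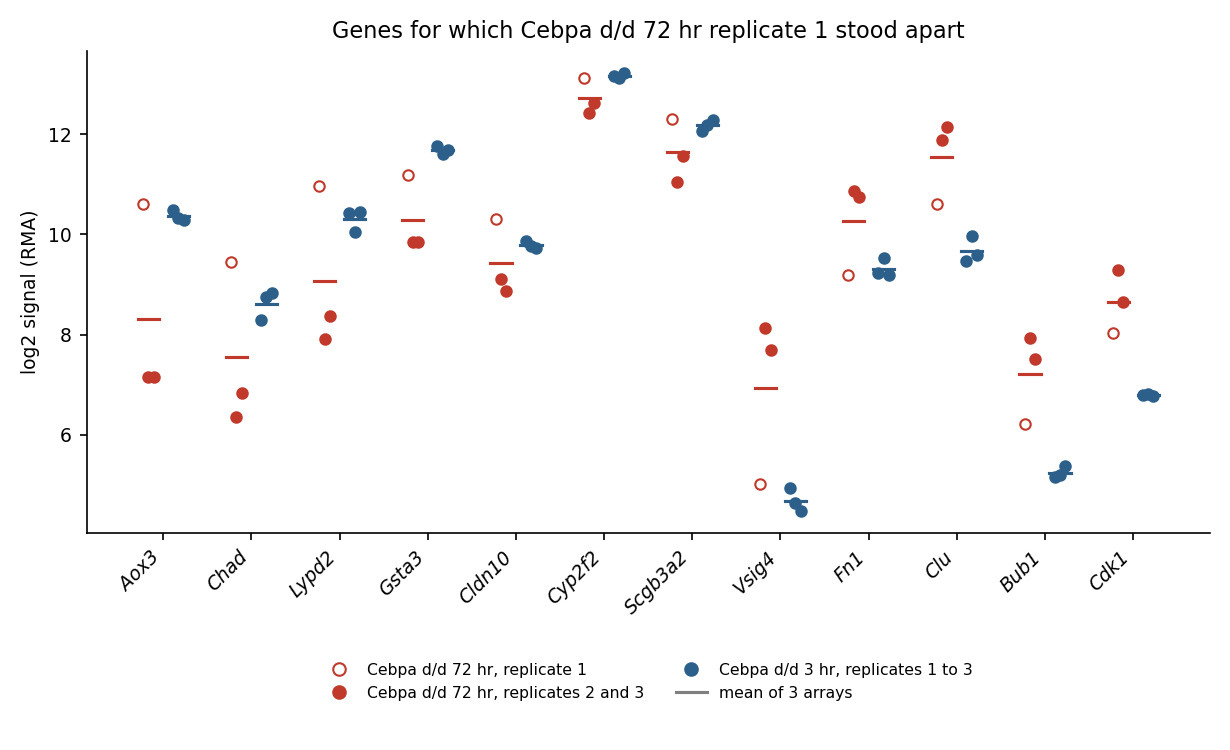
Log2 signal (RMA) of 12 genes on the Cebpa d/d arrays at 72 hr (red, open for replicate 1) and 3 hr (blue), with means of 3 arrays as bars; the genes were picked after their values were seen. Replicate 1 lies at the 3 hr level for Aox3 (10.61) and Vsig4 (5.02), away from the other 72 hr arrays (7.15 and 7.16, and 8.13 and 7.69).

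Among 34 airway P450 and xenobiotic enzymes, 6 fell (17.6%, beside 3.46% of all genes) and 3 rose (8.82%, beside 4.81%). Without replicate 1, 12 fell and 3 rose, and with sex as a covariate 1 fell and 1 rose. Gsta3, a glutathione transferase, measured 11.18, 9.84 and 9.85 against 11.76, 11.60 and 11.69 (2.63-fold lower, adjusted p = 0.0175; 0.116 with sex as a covariate). The transferases Gstm1 and Gstm2 were 1.56 and 1.84-fold lower and Ephx1, the microsomal epoxide hydrolase that acts on naphthalene epoxide, 1.58-fold lower, on calls that leaving out replicate 2 or 3 at 72 hr ended (adjusted p 0.0931 to 0.14). Cyp1a1 was 1.46-fold lower. Gstm5 was 1.85-fold higher (adjusted p = 0.00978), and so was Cyp2e1 (adjusted p = 0.017, and 0.0834 with sex as a covariate).

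Ciliated cell genes rose in part. Of 38 members 10 rose (26.3%, beside 4.81% of all genes) and none fell, with a median of 0.54 in both fits. The rises numbered 11 without replicate 1, 3 with sex as a covariate and 27 in control mice. The mean of the list was 9.09, 9.18 and 9.13 at 72 hr against 8.55, 8.79 and 8.49 at 3 hr, without overlap. Dynlrb2, a dynein light chain, measured 11.72, 11.89 and 11.74 against 11.09, 10.98 and 10.73 (1.81-fold higher, adjusted p = 0.00271), and the intraflagellar transport gene Ift80 was 1.5-fold higher (adjusted p = 0.00284). Cfap52, a cilium axoneme gene, measured 8.60, 9.94 and 9.57 against 7.82, 8.43 and 7.60 (adjusted p = 0.0176, and 0.134 with sex as a covariate). Foxj1, the master factor of motile cilia, did not pass (7.51, 7.74 and 7.65 against 7.17, 7.47 and 7.17, adjusted p = 0.124).

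Alveolar genes passed in few cases. Of 25 alveolar type 2 genes 2 rose, 8% beside 4.81% of all genes (7 without replicate 1, 1 with sex as a covariate, 11 in control mice). Of 19 alveolar type 1 genes none was called with all arrays, beside 8.27% of all genes (5 rose and 1 fell without replicate 1). Lyz2, a lysozyme of type 2 cells and macrophages, measured 10.38, 10.99 and 10.65 against 9.59, 9.72 and 9.86 (1.93-fold higher, adjusted p = 0.00438; 0.0826 with all 18 arrays). Cldn18, a lung tight junction protein, measured 9.35, 10.45 and 10.57 against 9.53, 9.23 and 8.95 (adjusted p = 0.0761, and 0.00265 without replicate 1). Clu, the secreted chaperone clusterin, is on neither alveolar list. Its signal was 3.65-fold higher (10.60, 11.88 and 12.15 against 9.48, 9.96 and 9.58, adjusted p = 0.00599, and 0.0615 with sex as a covariate).

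Fibroblast and macrophage genes also moved with replicate 1. Of 31 extracellular matrix and fibroblast genes 6 rose (19.4%, beside 4.81% of all genes). The rises numbered 14 without replicate 1, none with sex as a covariate and 15 in control mice. The list mean was 8.29 in replicate 1 and 8.89 and 8.78 in the others, against 8.35, 8.46 and 8.40 at 3 hr. Fn1, which encodes fibronectin, measured 9.18, 10.86 and 10.74 against 9.22, 9.52 and 9.18 (adjusted p = 0.11, and 0.000214 without replicate 1). Col14a1 measured 8.60, 9.14 and 9.28 against 8.16, 8.32 and 8.2 (1.72-fold higher, adjusted p = 0.00851; 0.061 with sex as a covariate). Replicate 1 lay at the 3 hr level for Fn1 and between the groups for Col14a1.

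Of 26 macrophage genes 5 rose (19.2%, beside 4.81% of all genes) and 1 fell (3.85%, beside 3.46%). The counts were 9 and 1 without replicate 1, 2 and 1 with sex as a covariate, and 15 and 1 in control mice. Cybb, a subunit of the phagocyte NADPH oxidase, measured 8.02, 8.54 and 8.32 against 6.86, 7.0 and 7.31 (2.36-fold higher, adjusted p = 0.00242). Adgre1, a surface marker of mouse macrophages, measured 6.70, 7.52 and 7.53 against 6.39, 6.29 and 6.38 (1.86-fold higher, adjusted p = 0.0223; 0.0916 with sex as a covariate). Pparg, a lipid-responsive nuclear receptor found in alveolar macrophages, fell (8.68, 8.22 and 8.26 against 9.82, 9.57 and 9.63, adjusted p = 0.000102). Vsig4, a complement receptor of resident macrophages, made the largest rise among genes called with and without replicate 1. It is on none of the lists. Vsig4 measured 5.02 in replicate 1 and 8.13 and 7.69 in the others, against 4.94, 4.64 and 4.48 at 3 hr. Its difference was 2.26 ± 0.58 (adjusted p = 0.0349), 3.22 without replicate 1 (adjusted p = 1.1e-05) and 2.21 with sex as a covariate (adjusted p = 0.16). Leaving out replicate 2 or 3 at 72 hr raised its adjusted p to 0.138. No gene was called among 21 endothelial, 17 neutrophil and 23 T, B and NK cell markers with all arrays by limma. As only 8.27% of all genes were called, lists this short say little about whether these cell types changed.

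Of 35 anti-proteases 2 rose (5.71%, beside 4.81% of all genes; 4 without replicate 1, 1 with sex as a covariate, 13 in control mice), namely the intracellular serpins Serpinb6b (9.85, 10.45 and 10.33 against 9.12, 9.31 and 9.26, adjusted p = 0.00599) and Serpinb8 (1.65-fold, adjusted p = 0.0346; 0.229 with sex as a covariate). Slpi, the secretory leukocyte protease inhibitor, measured 6.98, 7.62 and 7.25 against 6.93, 7.16 and 6.97 (adjusted p = 0.299). Of 52 proteases 5 rose (9.62%, beside 4.81% of all genes). Without replicate 1, 10 rose and 1 fell, with sex as a covariate 1 rose, and in control mice 13 rose and 4 fell. Tmprss2, a membrane serine protease, measured 9.84, 10.15 and 10.04 against 9.41, 9.13 and 9.24 (1.69-fold higher, adjusted p = 0.00182). The cysteine protease legumain (Lgmn) and the gelatinase Mmp2 were 1.66 and 1.61-fold higher, with adjusted p of 0.135 and 0.198 after adding sex. Cathepsin K (Ctsk) measured 8.38, 9.22 and 9.41 against 6.77, 7.85 and 8.08 (adjusted p = 0.0642, and 0.0374 without replicate 1). Wfdc3, a member of the whey acidic protein family that was not in the list, was 4.56-fold higher on one probe set, while its other probe set differed by 0.22 (adjusted p = 0.533).

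Of 29 genes listed as epithelial lineage factors 5 fell (17.2%, beside 3.46% of all genes) and none rose: Ddit3, Klf5, Grhl1, Cebpb and Cebpd. Without replicate 1, 4 fell. With sex as a covariate only Ddit3, the stress factor CHOP, was still called (adjusted p = 0.0023). Ddit3 and Cebpb are also on the ATF4 and unfolded protein response list, and Klf5 is also on the immediate early list. The calls of Grhl1 and Cebpd were among those lost with sex (adjusted p = 0.128 and 0.256), and that of Cebpd also without replicate 1 (adjusted p = 0.0736). Klf5 measured 8.79, 8.19 and 8.25 against 9.13, 8.97 and 9.18 (adjusted p = 0.014; 0.0812 with sex as a covariate). Cebpb, a relative of Cebpa, measured 7.96, 7.70 and 7.86 against 8.06, 8.43 and 8.46 (adjusted p = 0.0255; 0.0665 with sex as a covariate). Of 19 mucous cell genes 1 rose (5.26%, beside 4.81% of all genes; 1 rose and 2 fell without replicate 1, and 1 gene other than Muc4 rose with sex as a covariate), the membrane mucin Muc4 (8.33, 9.36 and 9.32 against 7.09, 8.08 and 7.76, adjusted p = 0.0147; 0.123 with sex as a covariate). Of 20 Notch genes 1 fell (5%, beside 3.46% of all genes; none with sex as a covariate), the target Hes1 (1.52-fold, adjusted p = 0.0179; 0.125 with sex as a covariate). Chia1, an acidic chitinase of airway epithelium, measured 9.07, 8.51 and 8.85 against 7.53, 7.82 and 7.61 (2.23-fold higher, adjusted p = 0.00265). The simple keratins Krt8, Krt18 and Krt19 did not pass (adjusted p = 0.969, 0.268 and 0.56). Of 17 clock genes 2 fell, 11.8% beside 3.46% of all genes (1 with sex as a covariate). These were Nfil3, by 1.16 ± 0.17, and Arntl, by 0.81 ± 0.16 on the log2 scale. The hour of sampling is not given in the sources used here.

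The same contrast in control mice called 2294 rises and 1830 falls (20.7% of genes tested). Of the 1649 genes called in Cebpa d/d mice, 1306 were also called in control mice in the same direction (6.55% of genes tested) and 1, the histone gene H3c15, in the opposite one. Together they make 6.56% of genes tested, 79.3% of the Cebpa d/d calls and 31.7% of the control calls. The groups of the 2 genotypes share no array, but both contrasts came from 1 fit with 1 estimate of spread for each gene. A gene of low spread is thus easier to call in both genotypes. Both also had the same sex imbalance between the times. The part of these in the overlap was not tested. Across genes the 2 sets of differences had a Pearson r of 0.81 (0.84 without replicate 1), given as a description since genes are not independent. The median size of a difference was 0.12 in Cebpa d/d and 0.19 in control mice. The median SE was 0.11 in both, equal because the fit shares its estimate of spread.

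The difference between the genotypes was tested by the interaction. Only Spink5 was called by limma (0.00502% of genes), with and without replicate 1, and 1393 genes (6.99%) had an unadjusted p under 0.05. Spink5, an inhibitor of epithelial serine proteases, measured 5.37, 5.50 and 5.83 in Cebpa d/d mice at 72 hr against 5.66, 5.53 and 5.43 at 3 hr (log2 difference 0.03 ± 0.15, adjusted p = 0.954). In control mice it measured 9.25, 9.17 and 9.53 at 72 hr against 5.40, 5.39 and 5.86 at 3 hr. The interaction was -3.74 ± 0.22 (adjusted p = 1.27e-05; -3.64 without replicate 1).

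The next smallest p-values did not pass. Sftpb, which encodes surfactant protein B, measured 10.29, 10.36 and 10.41 in Cebpa d/d mice at 72 hr against 10.29, 10.38 and 10.32 at 3 hr, and 10.82, 10.75 and 10.70 in control mice at 72 hr against 9.98, 10.12 and 10.05 at 3 hr (interaction -0.68 ± 0.11, adjusted p = 0.199). Rwdd2a had an interaction of -1.0 ± 0.16 (adjusted p = 0.199), H3c15 of -1.25 ± 0.17 (adjusted p = 0.102) and Vnn1, a pantetheinase, of 1.13 ± 0.19 (adjusted p = 0.282). Pigr, the polymeric immunoglobulin receptor, measured 9.38, 7.75 and 8.28 in Cebpa d/d mice at 72 hr against 9.20, 9.58 and 9.49 at 3 hr. The difference was -0.95, not called with all arrays, beside -2.46 in control mice (interaction adjusted p = 0.711). Replicate 1 lay at the 3 hr level. The fall was 1.93-fold with it and 2.65-fold without it, beside 5.52-fold in control mice. The stress and mitosis lists had no member with a called interaction, which says little about them, since only 1 of 19938 genes (0.00502%) was called.

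**Figure D5:**
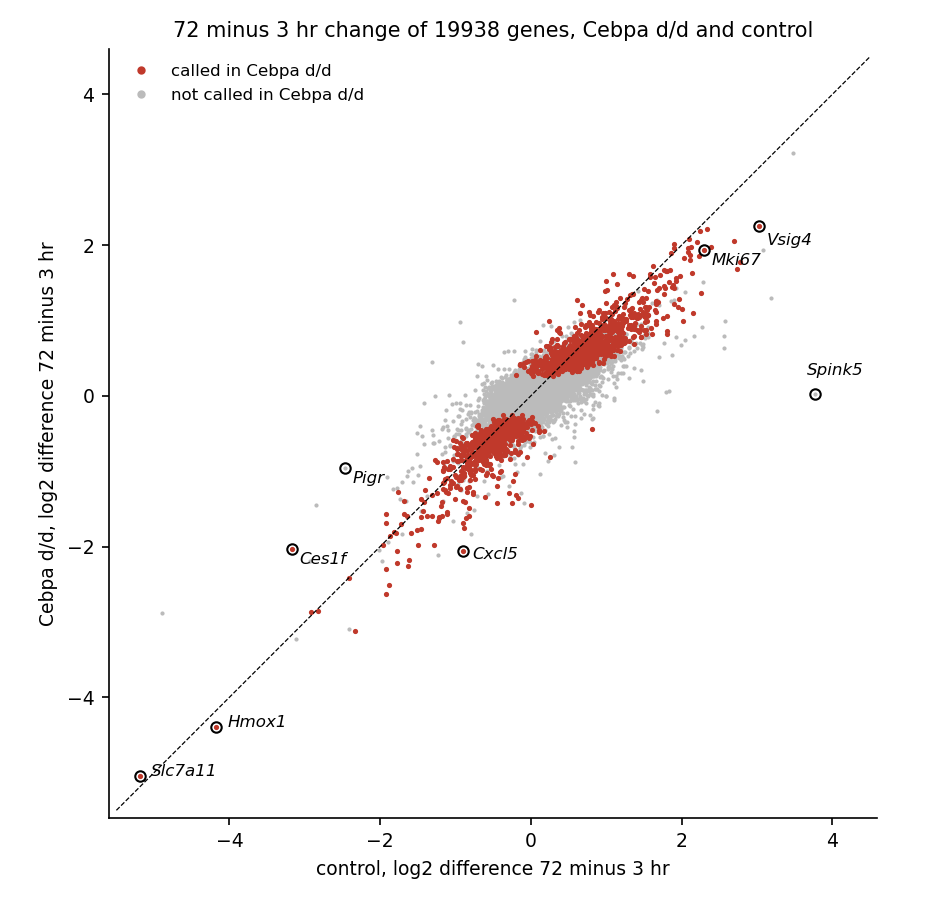
Log2 difference, 72 minus 3 hr, of 19938 genes in Cebpa d/d mice (vertical) and control mice (horizontal), red where called in Cebpa d/d; the dashed line marks equal differences. Slc7a11, Hmox1 and Mki67 lie near the line, and Spink5 lies at 0.03 in Cebpa d/d and 3.77 in control.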

How the data were processed

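Expression was measured on Affymetrix arrays, and the deposited values are log2 signals. The submitters' processing notes name RMA as the step by which the authors obtained these log2 values. They ran from 2.53 to 13.93, and their array medians from 6.48 to 6.65. Of 35557 probe sets, the 21789 annotated to a single gene symbol were used. The highest-level probe set stood for each of 999 genes with several, giving 19938 genes. Genes such as Cdkn1a and Ccnb1, with no probe set of a single symbol, were not analysed here. Samples were grouped by their titles. Group means were fitted with limma 3.58.1 in R 4.3.3 to the 12 arrays of Cebpa d/d and control mice at 72 and 3 hr, which share 1 estimate of spread (8 residual degrees of freedom), and again without Cebpa d/d 72 hr replicate 1. Genes were called at an adjusted p (Benjamini-Hochberg) under 0.05. The fit was tested on simulated data with known changes. Named genes were the 14 largest changes each way among genes called in both fits whose groups did not overlap, up to 4 members of each list by adjusted p, the 5 smallest interaction p-values and followed genes such as Cebpa. The members and lists were chosen with earlier results of these data known. Alternatives covered the model, scaling, sex, probe sets, thresholds and each array left out.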

Additional observations from a re-analysis of the deposited data

Results flagged for a closer look

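Spink5, which encodes an inhibitor of epithelial serine proteases, was singled out because its change over time differed between the genotypes by the interaction test. The change in Cebpa d/d mice less that in control mice was -3.74 ± 0.22 on the log2 scale (limma, adjusted p = 1.27e-05). All 3 control arrays at 72 hr lay above every Cebpa d/d array of both times. Over the alternatives in which it was tested the value ran from -3.89 to -3.63, with a highest adjusted p of 0.000139.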

How the results depend on the processing

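Of the Cebpa d/d counts (959 rises and 690 falls), array weights gave 2007 and 1498, sex as a covariate 270 and 243, and a demand for at least 2-fold 140 and 108. Testing all 35557 probe sets together, an alternative chosen after seeing the data, gave 520 and 407. Leaving out 1 array gave 307 to 1249 rises and 273 to 820 falls. Of 4124 control calls, the 6 control arrays alone gave 2615, sex 1471, an unadjusted p with at least 1.5-fold 1838, at least 2-fold 534, and leaving out 1 array 2274 to 4245. The lowest came without control 72 hr replicate 2, and 2277 and 2498 genes were called without control 72 hr replicate 3 and 3 hr replicate 3. The interaction called 1 gene in each fit that left out 1 array, 2 with all 18 arrays (Spink5 and Rwdd2a, adjusted p = 0.0315 for Rwdd2a) and 221 at an unadjusted p with at least 1.5-fold. It called 0 when genes below the median level were left out, which removed Spink5 (limma, 9969 genes, 500 at an unadjusted p under 0.05, smallest adjusted p 0.572). Apart from the settings that by construction use fewer arrays, fewer genes or a stricter fold, the cause was not tested. Replicate numbers did not pair the arrays: same-numbered arrays had correlations of -0.02, -0.10 and -0.03 in their deviations from the group means. With the replicate block there were 885 rises, 610 falls, 3661 control calls and 1 interaction. Among values of named single genes, 4324 kept their side of the threshold, 419 lost a call, 116 gained one and no called value turned its direction. The Cebpa d/d differences of Cebpa, Spink5, Sftpb, Sftpc, Xist, Krt8 and Cd68, none of them called with all arrays, changed sign in some alternatives (Cebpa ran from -0.03 to 0.57). Dim probe sets bound the smallest differences that could be seen.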

Other observations

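Probe sets outside the gene-level comparison were counted in the fit of all probe sets together, with no test of the difference in shares. In Cebpa d/d mice at 72 hr relative to 3 hr, 61 of 12147 probe sets with no gene symbol rose (0.502%) and 145 fell (1.19%). Of 1621 probe sets with several symbols, 12 rose (0.74%) and 23 fell (1.42%). Of 21789 probe sets with 1 symbol, 520 rose (2.39%) and 407 fell (1.87%).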
